A study of Mus musculus with 8 samples.

Results

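The 40 genes described here encode the machinery that licenses, fires and copies replication origins in S phase, with the enzymes that supply deoxynucleotides and 3 regulators of entry into S phase. They were chosen by symbol from what the proteins are known to do, with no threshold on their values but with earlier results of these data known. Of the 18193 genes that had a probe set with a single symbol, 13819 passed the filter on low values and were tested, and all 40 of these genes were among them. Each gene was read on its brightest probe set, so that 1 value per gene and array was used. A total of 9 of the 40 genes had 1 probe set and the other 31 had several.

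The study compared mouse embryonic stem cells with mutations of Gtf2i, which encodes the transcription factor TFII-I, and of Hprt, which encodes a purine salvage enzyme. Total RNA was hybridised to 8 Affymetrix mouse expression arrays, 2 for each of 4 lines, and the values are log2 intensities normalized across arrays. The exon 2 mutant, made from R1 stem cells by gene targeting, had the genotype Δexon2/+ at Gtf2i. The trap line was a gene-trap derivative of the AB2.2 stem cell line with the genotype HPRT -/-:GTF2I +/-. The Hprt knockout had the genotype HPRT -/- and no Gtf2i mutation in its label, and thus shares its Hprt label with the trap line. The wild-type cells carried no mutation in their label, and the labels do not name their line. Every line was grown with leukaemia inhibitory factor and serum replacement on a layer of feeder cells, so that each RNA sample could hold feeder RNA. Each Gtf2i mutation was studied in a single line, the labels do not say whether a line was 1 clone, and a Gtf2i mutation and its line cannot be told apart. The same holds for a batch, because the exon 2 mutant arrays were registered apart and no label names one. Both arrays of a line are titled biological replicates, but nothing states that separate cultures were grown, so the p-values cover only array-to-array spread, which may be technical.

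A replication origin is licensed in G1, when the origin recognition complex, Cdc6 and Cdt1 load the ring of Mcm2 to Mcm7 onto DNA. The ring becomes an active helicase in S phase once Cdc45 and the GINS complex join it, after which primase and the replicative polymerases copy the strands behind the sliding clamp Pcna. Many of these genes are targets of the E2F transcription factors, and mouse embryonic stem cells, which have a short G1 phase, are known to express many of them at high levels.

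The promoters were examined because most of these genes moved together between the lines. RefSeq windows of the mouse build GRCm38.p6, reaching from 250 bases before to 50 bases after the start, were held for 33 of the 40 genes, in 39 windows. Mcm4, Gmnn, Gins1, Gins2, Prim2, Pole and Ccne2 had no entry. The words TTTCCCGC, TTTCGCGC, TTTGCCGC and TTTGGCGC, which are common forms of the E2F recognition sequence, were searched on both strands and can overlap each other. At least 1 of them stood in 13 of the 39 windows, or 33.3%, against 744 of all 32851 windows, or 2.26%. The word CCAAT, the core of the NF-Y recognition sequence, stood in 59.0% of the 39 windows on either strand, against 37.4% of all windows. For comparison, the windows of mitosis and kinetochore genes held an E2F word in 3.45% and CCAAT in 82.8% of 29 cases. The genes with an E2F word were Mcm3, Mcm5, Mcm6, Mcm7, Orc1, Cdc6, Cdt1, Gins3, Pola1, Pold1, Pole2, Rfc3 and Lig1. A match describes the letters of the window and does not show that a factor bound there.

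The 170 bases before the start are given for 7 of the genes that held an E2F word in this stretch. Mcm7 also held one there, at position -165, and is not shown. Mcm5, Mcm6, Cdc6, Gins3 and Pola1 were higher in the exon 2 mutant than in wild-type cells, whereas Rfc3 was lower and Orc1 did not pass the test. Capitals mark the E2F words in the reading direction of the gene, and words that overlap are joined into a longer run. The stretches lie at chr8:75109339-75109508 on the plus strand for Mcm5, at chr1:128359706-128359875 on the minus strand for Mcm6, at chr11:98907981-98908150 on the plus strand for Cdc6, at chr8:95633389-95633558 on the plus strand for Gins3, at chrX:93632156-93632325 on the minus strand for Pola1, at chr4:108579284-108579453 on the plus strand for Orc1 and at chr5:151651209-151651378 on the minus strand for Rfc3.
Mcm5: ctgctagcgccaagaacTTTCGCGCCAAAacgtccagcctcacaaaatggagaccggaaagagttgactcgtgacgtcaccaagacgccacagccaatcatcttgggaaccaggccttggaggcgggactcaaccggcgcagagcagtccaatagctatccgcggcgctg
Mcm6: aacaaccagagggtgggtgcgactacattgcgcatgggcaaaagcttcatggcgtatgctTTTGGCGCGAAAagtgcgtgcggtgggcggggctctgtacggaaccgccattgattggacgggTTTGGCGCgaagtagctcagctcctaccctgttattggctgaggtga
Cdc6: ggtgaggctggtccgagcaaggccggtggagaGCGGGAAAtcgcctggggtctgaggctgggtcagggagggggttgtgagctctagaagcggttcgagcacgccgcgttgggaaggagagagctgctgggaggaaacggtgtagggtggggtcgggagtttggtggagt
Gins3: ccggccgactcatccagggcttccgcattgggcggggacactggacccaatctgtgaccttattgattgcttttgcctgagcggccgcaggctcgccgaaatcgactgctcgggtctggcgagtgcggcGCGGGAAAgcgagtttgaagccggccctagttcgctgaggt
Pola1: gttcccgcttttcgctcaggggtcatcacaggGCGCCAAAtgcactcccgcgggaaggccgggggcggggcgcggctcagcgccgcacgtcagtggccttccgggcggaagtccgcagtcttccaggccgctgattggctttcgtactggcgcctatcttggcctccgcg
Orc1: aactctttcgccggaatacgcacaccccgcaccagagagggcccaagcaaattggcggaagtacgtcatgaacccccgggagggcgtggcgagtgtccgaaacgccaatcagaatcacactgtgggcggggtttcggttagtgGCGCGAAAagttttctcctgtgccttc
Rfc3: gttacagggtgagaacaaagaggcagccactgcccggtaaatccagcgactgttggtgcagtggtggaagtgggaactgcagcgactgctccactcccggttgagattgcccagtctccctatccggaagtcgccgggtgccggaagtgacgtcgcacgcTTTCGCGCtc
Counted from the start, the first base of the word lay at position -138 in both Cdc6 and Pola1, at -41 in Gins3, at -27 in Orc1 and at -10 in Rfc3. In Mcm5 the overlapping words began at -153 and -149, and in Mcm6 an overlapping pair began at -110 and -106, with a further word at -47. An E2F word was thus present before genes that were higher, lower and not past the threshold in the exon 2 mutant.

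Across all tested genes, arrays of the same line correlated at 0.997 to 0.998, and the Hprt knockout arrays stood furthest from wild-type, at 0.866. Hprt averaged 12.25 in the exon 2 mutant, 10.74 in the trap line, 10.04 in the Hprt knockout and 12.08 in wild-type cells on the log2 scale, with the lowest values in the lines whose labels carry the Hprt mutation. Gtf2i averaged 10.48 in the exon 2 mutant, 10.09 in the trap line, 10.90 in the Hprt knockout and 10.12 in wild-type cells, and its log2 difference from wild-type in the trap line was -0.03 (adjusted p = 0.638). Its trap mean was below that of the Hprt knockout, the line that shares the Hprt label. Gtf2i had 4 probe sets and was read on the brightest. Where its probes lie relative to exon 2 or the trap insertion was not analysed here. Embryonic stem cell markers, 23 genes on the table, lay above the filter level on every array. Of 29 feeder fibroblast markers, Lum was the only one below that level anywhere, on both Hprt knockout arrays. The summed linear signal of the feeder markers, in units of 1000, was 161 to 164 in the exon 2 mutant, 168 to 170 in the trap line, 19.5 to 19.7 in the Hprt knockout and 255 to 256 in wild-type cells. In RNA from mixed cells, fewer cells of a type and less RNA per cell cannot be told apart.

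**Figure D1:**
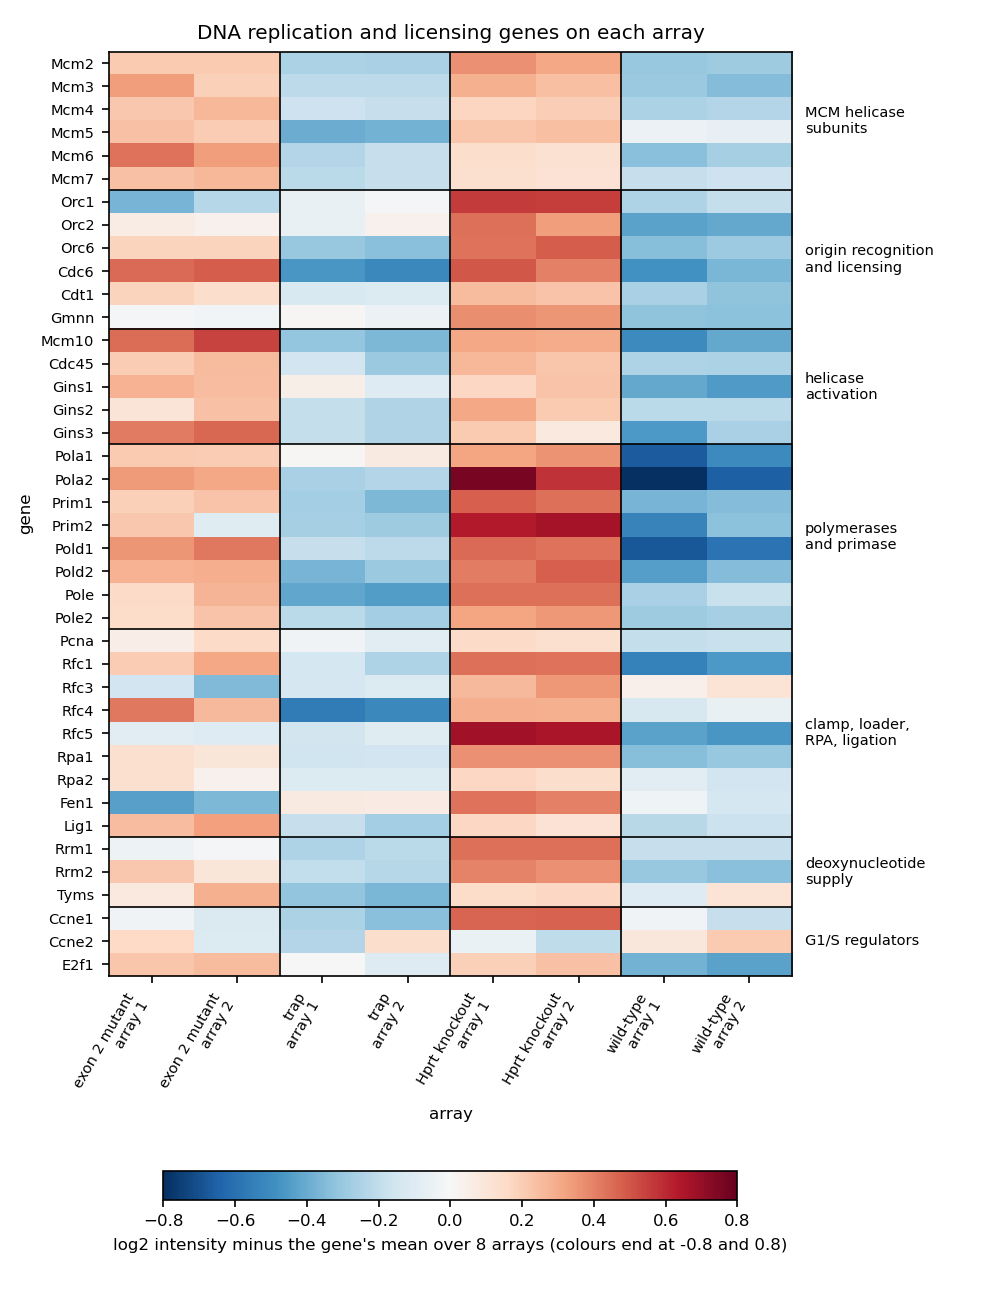
Heat map of the 40 replication genes (rows, grouped by role) on the 8 arrays (columns), as log2 intensity minus the gene's mean over the 8 arrays, with colours ending at 0.8 in either direction. The Hprt knockout arrays held the highest mean for 28 of the 40 genes and the wild-type arrays the lowest for 26.

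The lines differed in a common order for many of these genes. The Hprt knockout had the highest mean for 28 of the 40 genes, the exon 2 mutant for 11, wild-type for 1 and the trap line for 0. The lowest mean was in the exon 2 mutant for 3 genes, in the trap line for 10, in the Hprt knockout for 1 and in wild-type cells for 26. Among all tested genes the Hprt knockout was highest for 45.9% and wild-type lowest for 34.5%, so both extremes were also the most frequent ones elsewhere. The exon 2 mutant was highest for 15.3% of all tested genes, the trap line for 19.0% and wild-type for 19.7%. Lowest was the exon 2 mutant for 20.4%, the trap line for 19.4% and the Hprt knockout for 25.8%. The order Hprt knockout, exon 2 mutant, trap and wild-type, from high to low, applied to 20 of the 40 genes. Its share among all tested genes was not counted, so it is given as a description. The summed linear signal of the 40 genes, in units of 1000, was 107 on each exon 2 mutant array, 84.2 to 85.1 in the trap line, 117 to 118 in the Hprt knockout and 80.5 to 80.9 in wild-type cells. The arrays of 1 line lay closer to each other in this sum than to the arrays of any other line, although single genes such as Ccne2 and Tyms overlapped between lines.

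The exon 2 mutant was set against wild-type cells to see what changes in cells with the Δexon2 allele of Gtf2i. Of the 40 replication genes, 34 were higher in the exon 2 mutant at an adjusted p under 0.05 (limma, Benjamini-Hochberg over all tested genes), against 32.5% of all tested genes. Fen1 and Rfc3 were lower, against 23.1% of all tested genes, and Ccne1, Ccne2, Orc1 and Tyms did not pass. The median log2 difference of the 40 genes was 0.47, against 0.03 over all tested genes. Pola2 and Pold1 differed at least 2-fold upward, which 2.96% of all tested genes did. Under cyclic loess scaling the background was 26.6% higher and 29.1% lower, and 32 of the 40 genes were still called higher. The feeder markers moved with this comparison, with 26 of 29 lower in the exon 2 mutant and none higher, and the embryonic stem cell markers too, with 17 of 23 higher and 1 lower. Primitive endoderm markers were lower for 14 of 20 genes and higher for 1. The part of the cell types these markers stand for, where present, was not tested.

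Set against the Hprt knockout, which carries the same Hprt genotype label, the trap line had a different pattern, and the replication genes were lower. In the trap line 39 of the 40 were lower and 0 higher, against 41.8% lower and 26.6% higher among all tested genes, and Ccne2 did not pass. The median log2 difference was -0.51, or -0.39 relative to the median of all tested genes, which was itself -0.13. None of the 40 was at least 2-fold lower, which 4.95% of all tested genes were. Under cyclic loess scaling, which shifted the all-gene median by 0.14, the background was 30.7% lower and 33.9% higher, and 34 of the 40 were lower with none higher. The feeder markers differed far more, with 27 of 29 higher in the trap line, 1 lower and a median of 3.90 on the log2 scale, and their part in the result was not tested.

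Between the lines without a Gtf2i mutation in their labels, 38 of the 40 genes were higher in the Hprt knockout than in wild-type cells and 0 lower, against 46.4% higher and 25.1% lower among all tested genes. Ccne2 and Tyms did not pass. The median log2 difference was 0.62, or 0.46 relative to all tested genes. Pola2, Rfc5, Prim2 and Pold1 were at least 2-fold higher, which 8.40% of all tested genes were. Under cyclic loess scaling the median of all genes moved by -0.16, the background became 34.1% higher and 34.2% lower, and 33 of the 40 genes were higher, with Ccne2 lower. All 29 feeder markers were lower in the Hprt knockout, by a median log2 difference of -4.65, and 17 of 23 stem cell markers were higher and 4 lower. The part of the low feeder signal in this result was not tested.

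Set directly against wild-type cells, the trap line had 11 of the 40 genes higher, 4 lower and 25 not past the threshold, close to the background of 26.5% higher and 14.6% lower. The median log2 difference of the 40 genes was 0.08, against 0.05 over all tested genes. Cdt1, Pole, Rfc1, Rpa1 and Tyms each lost their call when single trap or wild-type arrays were left out. Of these 4 comparisons, the exon 2 mutant against wild-type and the trap line against the Hprt knockout are the only pair with no arrays in common. Under cyclic loess scaling the background was 22.0% higher and 18.6% lower, with 9 of the 40 genes higher and 6 lower. Feeder markers were higher in the trap line than in wild-type cells for 4 of 29 genes and lower for 16. Of the stem cell markers 14 of 23 were higher and 2 lower in the trap line, and of the primitive endoderm markers 3 of 20 were higher and 13 lower.

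The calls of that pair were therefore set side by side gene by gene. A total of 34 of the 40 genes, or 85.0%, were higher in the exon 2 mutant than in wild-type and lower in trap than in Hprt knockout cells, against 22.9% of all tested genes. Fen1 and Rfc3 were lower in both. Ccne1, Orc1 and Tyms were lower in the trap line and did not pass in the exon 2 mutant, and Ccne2 passed in neither. The difference between both effects was itself tested, as the exon 2 mutant minus wild-type difference less the trap minus Hprt knockout difference. It was above 0 for 37 of the 40 genes and below for 0, against 42.6% above and 27.0% below among all tested genes, with a median of 0.96 on the log2 scale, or 0.80 relative to all tested genes. It amounted to at least 2-fold for 19 of the 40, against 15.4%. For each gene it equals the exon 2 mutant over trap difference plus the Hprt knockout over wild-type difference. The medians of those parts were 0.42 and 0.62, and the second part compares lines with no Gtf2i mutation in their labels. In the test of the difference Fen1, Rfc3 and Ccne2 did not pass, at 0.04 (adjusted p = 0.698), 0.10 (adjusted p = 0.433) and -0.20 (adjusted p = 0.401). Under cyclic loess the median of all genes moved by -0.19, the background became 32.7% above and 35.2% below, and 36 of the 40 genes were above. Across the 40 genes the sizes of both effects had a Pearson r of -0.29 and a Spearman rho of -0.19, given as a description, since genes on the same arrays are not independent. All 29 feeder markers were below 0 in the test of the difference, each at least 2-fold, at a median of -4.51. Of the 23 stem cell markers 17 were above 0 and 3 below, and of the 20 primitive endoderm markers 6 were above and 8 below. The part of the cell types these markers stand for, where present, was not tested.

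**Figure D2:**
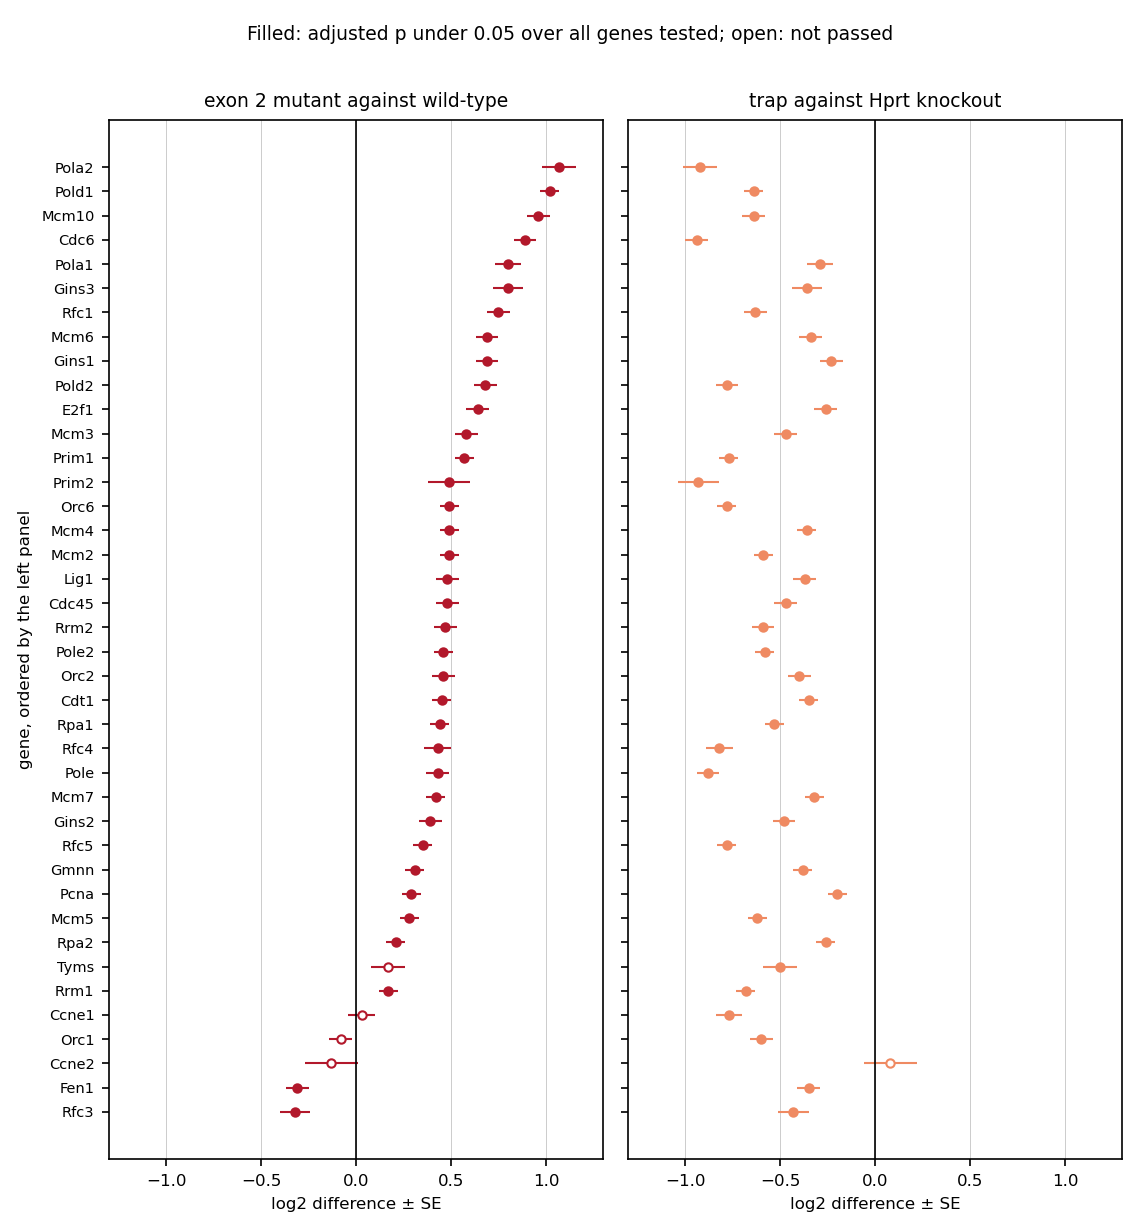
Log2 difference ± SE of each of the 40 replication genes, for the exon 2 mutant against wild-type and for the trap line against the Hprt knockout (2 arrays per line), with filled points for an adjusted p under 0.05. A total of 34 genes lie above 0 against wild-type and below 0 against the Hprt knockout, past the threshold in both, and Fen1 and Rfc3 lie below 0 in both.

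Both Gtf2i lines were compared with each other after the values had been seen. Summed feeder signal, in units of 1000, was 161 to 164 in the exon 2 mutant against 168 to 170 in the trap line. Single feeder markers still differed, with 10 of 29 higher in the exon 2 mutant and 15 lower, 4 of these at least 2-fold. The replication genes were higher in the exon 2 mutant than in the trap line for 32 of 40 and lower for 2, against 24.5% higher and 24.7% lower among all tested genes, with a median log2 difference of 0.42. Of the 23 stem cell markers 6 were higher and 5 lower in this comparison, at a median of 0.01. Primitive endoderm markers moved with it, with 12 of 20 lower and 2 higher in the exon 2 mutant at a median of -0.33. Of the 20, 3 and 2 were not above the filter level on the exon 2 mutant arrays, and 1 and 0 on the trap arrays. The endoderm and feeder lists also have a gene in common. Whether endoderm cells were present, and the part of feeder or endoderm cells in the result, was not tested. These lines differ in parental line, in Gtf2i allele and in the Hprt label, which cannot be told apart here. Against the Hprt knockout, 4 of the 40 genes were higher in the exon 2 mutant and 17 lower, against 24.9% and 36.3% of all tested genes. The median log2 difference there was -0.11, against -0.09 over all tested genes. Under cyclic loess scaling, which shifted the all-gene median by 0.11, it was 0.01, against 0.02. The replication genes thus lay close to the background in both, and their median had no settled direction. Gins3, Mcm6, Mcm10 and Mcm7 were the 4 higher ones, at 0.30, 0.26, 0.20 and 0.13, and all but Mcm6 lost the call when single arrays were left out. With the mean of all probe sets none of the 4 passed, at 0.06 for Gins3, 0.07 for Mcm6, 0.03 for Mcm7 and, reversed, -0.13 for Mcm10.

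**Figure D3:**
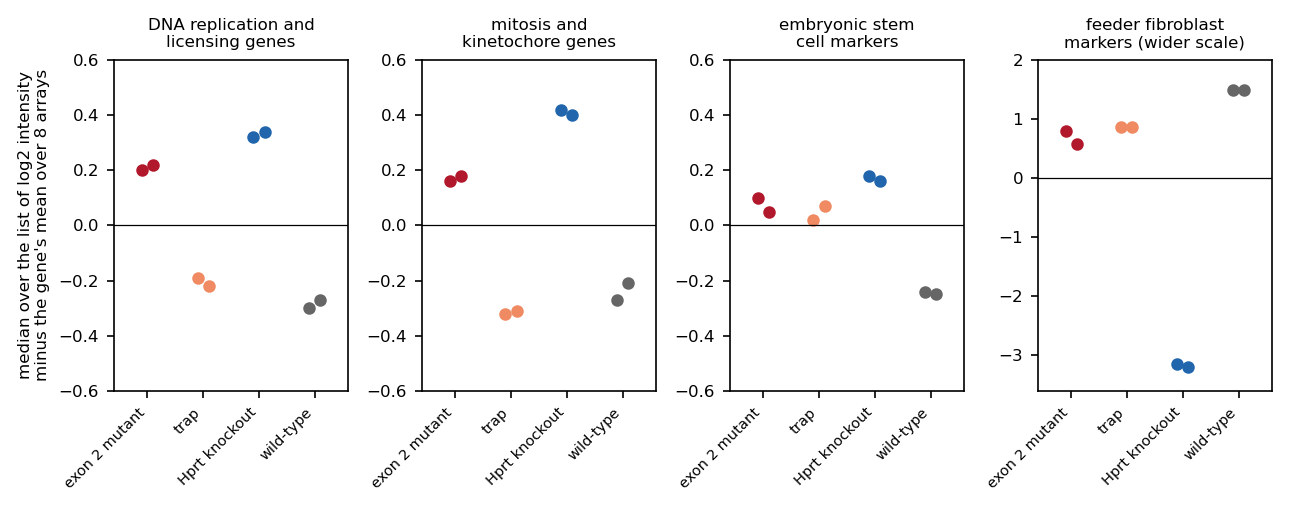
Median over each gene list, per array, of log2 intensity minus the gene's mean over the 8 arrays, for the replication genes, the mitosis and kinetochore genes, the embryonic stem cell markers and, on a wider scale, the feeder fibroblast markers. The replication genes lie at 0.20 to 0.22 in the exon 2 mutant, -0.22 to -0.19 in the trap line, 0.32 to 0.34 in the Hprt knockout and -0.30 to -0.27 in wild-type cells.

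The 6 subunits of the MCM ring, the core of the replicative helicase, had the same direction in 3 of the comparisons. All 6 were higher in the exon 2 mutant than in wild-type cells, with log2 differences of 0.28 to 0.69, and all 6 were lower in trap than in Hprt knockout cells, by -0.62 to -0.32. All 6 were also higher in the Hprt knockout than in wild-type cells, although under cyclic loess scaling Mcm5 fell short of the threshold there, at 0.12 (adjusted p = 0.0571). Mcm2 read 11.69 on both exon 2 mutant arrays, 11.23 and 11.22 in the trap line, 11.85 and 11.79 in the Hprt knockout, and 11.18 and 11.20 in wild-type cells. Its exon 2 mutant and Hprt knockout arrays were all above its trap and wild-type arrays, and the 2 trap values stood just above the wild-type ones. Mcm6 read 12.02 and 11.92 in the exon 2 mutant, 11.35 and 11.40 in the trap line, 11.73 and 11.71 in the Hprt knockout, and 11.25 and 11.32 in wild-type cells. Here the exon 2 mutant was the highest line on both arrays, and it exceeded wild-type by 0.69 ± 0.06 (SE, adjusted p = 9.94e-05) and the Hprt knockout by 0.26 ± 0.06 (adjusted p = 0.00664). With the mean of all its probe sets the difference from the Hprt knockout was 0.07 and did not pass.

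Mcm5 departed from the other subunits in the trap line. It read 12.71 and 12.68 in the exon 2 mutant, 12.08 and 12.10 in the trap line, 12.70 and 12.72 in the Hprt knockout, and 12.43 and 12.41 in wild-type cells. The trap arrays were the lowest of the 8 and lay below both wild-type arrays. The trap line was lower than wild-type by -0.33 ± 0.05 (adjusted p = 0.00164), whereas for the other 5 subunits this difference ranged from -0.03 to 0.11 and did not pass. The Mcm5 call against wild-type was lost when all probe sets of the gene were averaged, at -0.09 (adjusted p = 0.259). Mcm3, Mcm4 and Mcm7, the remaining subunits, differed between the exon 2 mutant and wild-type by 0.58, 0.49 and 0.42, and between the trap line and the Hprt knockout by -0.47, -0.36 and -0.32.

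**Figure D4:**
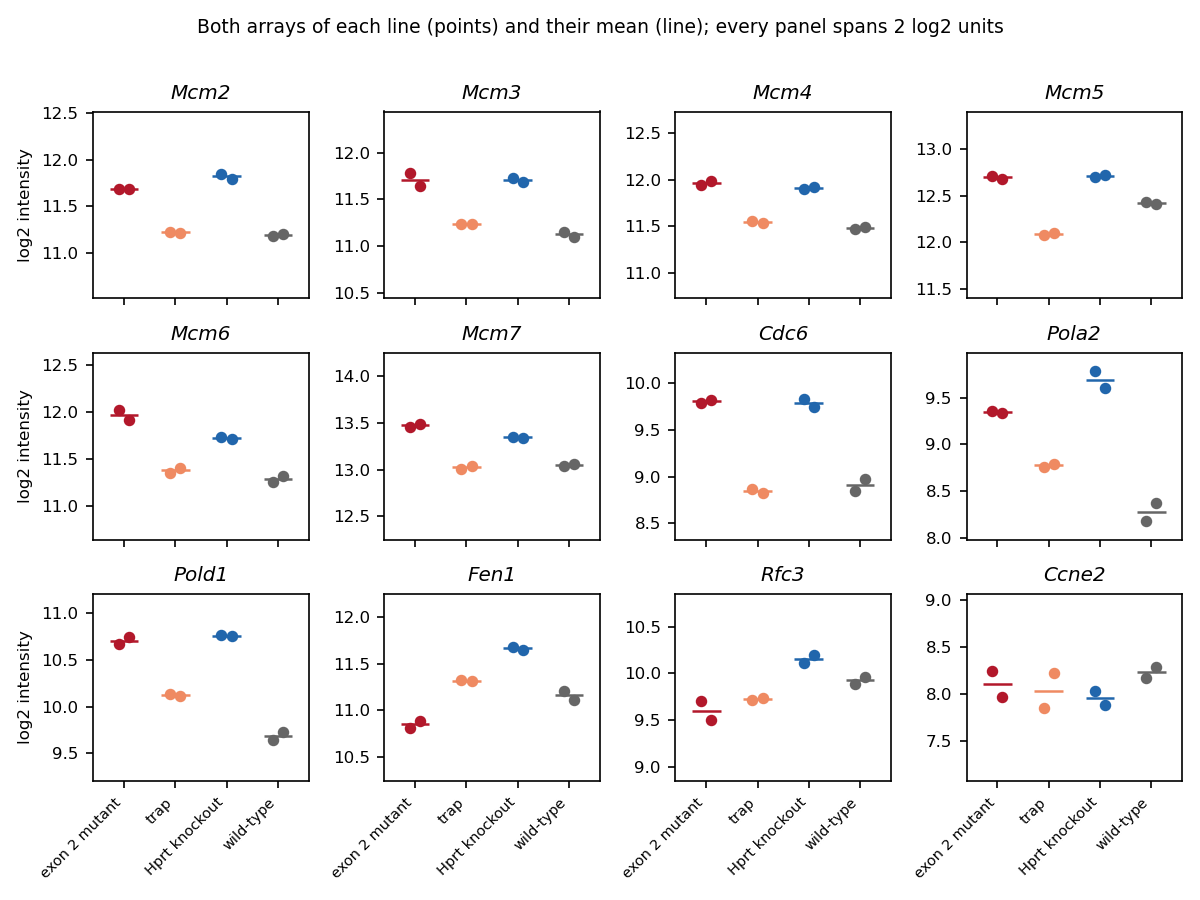
Log2 intensity of 12 replication genes, with both arrays of each line as points and their mean as a line, each panel spanning 2 log2 units. Mcm2 to Mcm7 and Cdc6 are higher in the exon 2 mutant and the Hprt knockout than in the trap line and wild-type cells, Fen1 and Rfc3 are lowest in the exon 2 mutant, and the lines overlap in Ccne2.

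Among the genes of origin recognition and licensing, Cdc6, the loader of the MCM ring, differed most. Its arrays read 9.79 and 9.82 in the exon 2 mutant, 8.87 and 8.82 in the trap line, 9.83 and 9.74 in the Hprt knockout, and 8.85 and 8.97 in wild-type cells. The lines thus fell into a high and a low pair with no overlap between the pairs, and within each pair the arrays overlapped. Cdc6 was higher in the exon 2 mutant than in wild-type cells by 0.89 ± 0.06 (adjusted p = 5.18e-05) and lower in trap than in Hprt knockout cells by -0.94 ± 0.06 (adjusted p = 1.33e-05), the largest downward difference of the 40 genes there. Orc6, a subunit of the origin recognition complex, was higher by 0.49 in the exon 2 mutant and lower by -0.78 in the trap line against their controls. Cdt1, the partner of Cdc6, and Orc2, another subunit of the complex, were higher in the exon 2 mutant by 0.45 and 0.46, and the Orc2 call was lost with the mean of all its probe sets, at 0.15 (adjusted p = 0.0561). Gmnn encodes geminin, the inhibitor of Cdt1, and it too was higher in the exon 2 mutant, by 0.31 ± 0.05 (adjusted p = 0.00142). Its exon 2 mutant and trap means, 11.31 and 11.30, differed by 0.00 (adjusted p = 0.973).

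Orc1, the large subunit of the origin recognition complex, stood apart from its partners. It read 9.29 and 9.43 in the exon 2 mutant, 9.60 and 9.64 in the trap line, 10.22 and 10.21 in the Hprt knockout, and 9.41 and 9.47 in wild-type cells. The Hprt knockout was high, and the exon 2 mutant arrays overlapped the wild-type arrays. Against wild-type the exon 2 mutant differed by -0.08 ± 0.06 (adjusted p = 0.311), or -0.20 under cyclic loess scaling (adjusted p = 0.0369), while the Hprt knockout exceeded wild-type by 0.78 ± 0.06 (adjusted p = 2.98e-05). The exon 2 mutant was also lower than the trap line, by -0.26 ± 0.06 (adjusted p = 0.0129), a call lost without exon 2 mutant replicate 1, at -0.19 (adjusted p = 0.0561), and without trap replicate 2, at -0.24 (adjusted p = 0.0711), and with the mean of both probe sets, at -0.08 (adjusted p = 0.326). A dimmer probe set of Orc1, with a mean of 7.76, gave -0.16 for the Hprt knockout over wild-type cells (adjusted p = 0.0848 over all probe sets), so the high value in the Hprt knockout rests on the brighter one.

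The 5 genes that turn the loaded ring into a helicase were all higher in the exon 2 mutant than in wild-type, at a median of 0.69, and all lower in trap than in Hprt knockout cells, at a median of -0.47. Mcm10, which binds the helicase as origins fire, read 10.59 and 10.68 in the exon 2 mutant, 9.83 and 9.78 in the trap line, 10.45 and 10.44 in the Hprt knockout, and 9.63 and 9.73 in wild-type cells. No exon 2 mutant or Hprt knockout array came near the trap and wild-type arrays. Its difference was 0.96 ± 0.06 in the exon 2 mutant against wild-type (adjusted p = 3.19e-05). Of 2 dim probe sets of Mcm10, with means of 5.86 and 5.78, the first gave the opposite direction, at -0.56 (adjusted p = 0.00733), and the other gave 0.55 (adjusted p = 0.00149). The GINS subunits Gins1, Gins2 and Gins3 were higher in the exon 2 mutant by 0.69, 0.39 and 0.80, and Cdc45, which joins the ring together with them, by 0.48. The Gins1 difference between trap and Hprt knockout cells, -0.23, was lost without trap replicate 2, at -0.15 (adjusted p = 0.101), and without Hprt knockout replicate 2, at -0.20 (adjusted p = 0.0819), and under cyclic loess scaling, at -0.06 (adjusted p = 0.451). Gins3 read 8.43 and 8.47 in the exon 2 mutant, 7.82 and 7.77 in the trap line, 8.22 and 8.09 in the Hprt knockout, and 7.55 and 7.75 in wild-type cells. It was the gene with the highest excess of the exon 2 mutant over the Hprt knockout, at 0.30 ± 0.08 (adjusted p = 0.0150), a call lost without exon 2 mutant replicate 2, at 0.27 (adjusted p = 0.0633), without Hprt knockout replicate 2, at 0.23 (adjusted p = 0.0834), and with the mean of all its probe sets, at 0.06 (adjusted p = 0.536).

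The polymerases and primase had the widest median of any role in the trap line against the Hprt knockout and in the difference between both effects. All 8 were higher in the exon 2 mutant than in wild-type, with a median of 0.63, all 8 were lower in trap than in Hprt knockout cells, with a median of -0.78, and the difference between both effects was at least 2-fold for each of the 8. Pola2, the accessory subunit of polymerase alpha, read 9.36 and 9.33 in the exon 2 mutant, 8.76 and 8.79 in the trap line, 9.78 and 9.60 in the Hprt knockout, and 8.18 and 8.37 in wild-type cells. The 4 lines did not overlap. Its differences were 1.07 ± 0.09 in the exon 2 mutant against wild-type (adjusted p = 8.67e-05), -0.92 ± 0.09 for trap against Hprt knockout cells (adjusted p = 7.22e-05) and 1.42 ± 0.09 for the Hprt knockout over wild-type cells (adjusted p = 6.78e-06). Pold1, the catalytic subunit of polymerase delta, read 10.67 and 10.74 in the exon 2 mutant, 10.13 and 10.11 in the trap line, 10.77 and 10.75 in the Hprt knockout, and 9.64 and 9.73 in wild-type cells. It was higher in the exon 2 mutant by 1.02 ± 0.05 (adjusted p = 2.17e-05), and its trap arrays also lay above both wild-type arrays, by 0.43 ± 0.05 (adjusted p = 0.00107).

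Pola1, the catalytic subunit of polymerase alpha, was among the genes whose trap value lay closer to the Hprt knockout than to wild-type. It read 10.04 and 10.03 in the exon 2 mutant, 9.84 and 9.90 in the trap line, 10.14 and 10.19 in the Hprt knockout, and 9.16 and 9.32 in wild-type cells. Wild-type was the only low line. The trap line exceeded it by 0.63 ± 0.07 (adjusted p = 0.000464), the widest difference of the 40 genes between these lines, and the exon 2 mutant did not differ from the trap line past the threshold, at 0.17 (adjusted p = 0.0750). Pole, the catalytic subunit of polymerase epsilon, showed the opposite in the trap line, with 9.79 and 9.91 in the exon 2 mutant, 9.22 and 9.19 in the trap line, 10.08 on both Hprt knockout arrays, and 9.38 and 9.46 in wild-type cells. Its trap arrays were the lowest, below wild-type by -0.22 ± 0.06 (adjusted p = 0.0241), a call lost without trap replicate 1 or 2, at -0.23 and -0.20, and without wild-type replicate 2, at -0.18 (adjusted p = 0.120). The primase subunits Prim1 and Prim2 were lower in trap than in Hprt knockout cells by -0.77 and -0.93. Prim2 was higher in the exon 2 mutant than in wild-type cells by 0.49, a call lost without wild-type replicate 1, at 0.39 (adjusted p = 0.0523). Pold2 and Pole2, accessory subunits of polymerases delta and epsilon, were lower in trap than in Hprt knockout cells by -0.78 and -0.58. They were higher in the exon 2 mutant than in wild-type by 0.68 and 0.46. This last Pole2 call was lost with the mean of all its probe sets, at 0.25 (adjusted p = 0.0670).

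The clamp, clamp loader, single-strand binding and ligation genes held both genes that were lower in the exon 2 mutant. Fen1, the flap endonuclease that trims Okazaki fragments, read 10.81 and 10.89 in the exon 2 mutant, 11.32 and 11.31 in the trap line, 11.68 and 11.65 in the Hprt knockout, and 11.21 and 11.11 in wild-type cells. The exon 2 mutant arrays were the lowest of all, and it was lower than wild-type by -0.31 ± 0.06 (adjusted p = 0.00325), than the trap line by -0.46 and than the Hprt knockout by -0.81. Rfc3, a subunit of the clamp loader, read 9.70 and 9.50 in the exon 2 mutant, 9.72 and 9.74 in the trap line, 10.11 and 10.20 in the Hprt knockout, and 9.89 and 9.96 in wild-type cells. The exon 2 mutant was lower than wild-type by -0.32 ± 0.08 (adjusted p = 0.0104), a call lost without wild-type replicate 2, at -0.29 (adjusted p = 0.0593). The Hprt knockout exceeded wild-type in Rfc3 by 0.24 ± 0.08 (adjusted p = 0.0283), and the difference was -0.01 under cyclic loess scaling, and without Hprt knockout replicate 2 or either wild-type array the call was lost, so that direction was not settled. A further probe set of each gene gave the same directions, with -0.32 for Fen1 (adjusted p = 0.00545) and -0.28 for Rfc3 (adjusted p = 0.00790) in the exon 2 mutant against wild-type.

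The other clamp loader subunits did not follow Rfc3. Rfc4 read 11.04 and 10.88 in the exon 2 mutant, 10.06 and 10.10 in the trap line, 10.91 and 10.90 in the Hprt knockout, and 10.49 and 10.56 in wild-type cells. Both trap arrays lay below all others, and the trap line was lower than wild-type by -0.45 ± 0.07 (adjusted p = 0.00211), more than any other of the 40 genes. Rfc5 read 11.08 and 11.06 in the exon 2 mutant, 11.02 and 11.07 in the trap line, 11.84 and 11.82 in the Hprt knockout, and 10.74 and 10.70 in wild-type cells. The Hprt knockout stood alone at the top, and the exon 2 mutant and trap arrays overlapped, with a difference of 0.02 ± 0.05 (adjusted p = 0.713). Rfc1, the large subunit, was higher in the exon 2 mutant than in wild-type by 0.75. Pcna, the sliding clamp, read 13.76 and 13.86 in the exon 2 mutant, 13.68 and 13.62 in the trap line, 13.86 and 13.84 in the Hprt knockout, and 13.52 and 13.53 in wild-type cells. Its differences were small, at 0.29 ± 0.05 in the exon 2 mutant against wild-type (adjusted p = 0.00393) and -0.20 ± 0.05 for trap against Hprt knockout cells (adjusted p = 0.0136), and the second of them was lost without trap replicate 2, at -0.17 (adjusted p = 0.0804), and without Hprt knockout replicate 1, at -0.20 (adjusted p = 0.0582). Lig1, the ligase that joins Okazaki fragments, was higher in the exon 2 mutant by 0.48. Rpa1 and Rpa2, which coat single-stranded DNA, were higher by 0.44 and 0.21. The Rpa2 call was lost under cyclic loess scaling, at 0.10 (adjusted p = 0.144), and with only the compared arrays, at 0.21 (adjusted p = 0.0514). The Rpa2 call was also lost without exon 2 mutant replicate 1, at 0.16, and without wild-type replicate 2, at 0.17.

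Of the genes of deoxynucleotide supply, the ribonucleotide reductase subunit Rrm2 read 12.74 and 12.62 in the exon 2 mutant, 12.33 and 12.30 in the trap line, 12.92 and 12.89 in the Hprt knockout, and 12.22 and 12.19 in wild-type cells. The lines kept apart, and the exon 2 mutant exceeded wild-type by 0.47 ± 0.06 (adjusted p = 0.000500). Rrm1, the large subunit of the same enzyme, was higher by only 0.17 ± 0.05 (adjusted p = 0.0196), and this call was lost without exon 2 mutant replicate 2 and without either wild-type array, at 0.15, 0.17 and 0.16 (adjusted p = 0.0717, 0.0723 and 0.0743). Under cyclic loess scaling the Rrm1 excess over wild-type was 0.06 (adjusted p = 0.293), and with the mean of all its probe sets 0.15 (adjusted p = 0.0574). Rrm1 was lower in trap than in Hprt knockout cells by -0.68 ± 0.05 (adjusted p = 1.60e-05). Tyms, thymidylate synthase, was dim on the probe set used and passed the filter level on 7 of the 8 arrays. It read 5.77 and 5.98 in the exon 2 mutant, 5.38 and 5.33 in the trap line, 5.84 and 5.86 in the Hprt knockout, and 5.59 and 5.80 in wild-type cells. The trap arrays were the lowest, by -0.50 ± 0.09 against the Hprt knockout (adjusted p = 0.00243), and the exon 2 mutant and wild-type arrays overlapped. A further probe set that carries a second symbol besides Tyms was not used, so the gene's level rests on a dim signal.

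The regulators of entry into S phase differed among themselves. E2f1, an activating E2F factor, read 8.54 and 8.57 in the exon 2 mutant, 8.32 and 8.21 in the trap line, 8.51 and 8.55 in the Hprt knockout, and 7.94 and 7.89 in wild-type cells. Wild-type was the low line, and it was exceeded by the exon 2 mutant by 0.64 ± 0.06 (adjusted p = 0.000128) and by the trap line by 0.35 ± 0.06 (adjusted p = 0.00287). Ccne1, cyclin E1, read 11.06 and 10.97 in the exon 2 mutant, 10.83 and 10.75 in the trap line, 11.55 and 11.56 in the Hprt knockout, and 11.06 and 10.90 in wild-type cells. The Hprt knockout was high and the exon 2 mutant and wild-type arrays overlapped, at a difference of 0.03 ± 0.07 (adjusted p = 0.717), although a second probe set gave 0.21 (adjusted p = 0.0286). Ccne2, cyclin E2, read 8.24 and 7.97 in the exon 2 mutant, 7.85 and 8.22 in the trap line, 8.03 and 7.88 in the Hprt knockout, and 8.17 and 8.29 in wild-type cells. Its arrays overlapped between most lines, the spread within a line was the widest of the 40 genes in the trap line (SD 0.26), and no comparison passed.

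Genes of the same pathway that are not among the 40 were listed separately. Of 34 further replisome and origin genes, 25 were higher and 3 lower in the exon 2 mutant than in wild-type, 31 were lower and 2 higher in trap than in Hprt knockout cells, and 31 were higher and 2 lower in the Hprt knockout than in wild-type. Among all tested genes 32.5% were higher and 23.1% lower in the exon 2 mutant than in wild-type. The shares were 41.8% lower and 26.6% higher for trap against Hprt knockout cells, and 46.4% higher and 25.1% lower for the Hprt knockout against wild-type. The medians of the 34 genes were 0.47, -0.60 and 0.62, close to those of the 40 genes. Mcm8, a relative of the MCM subunits, was higher in the exon 2 mutant by 1.09 ± 0.09 and lower in the trap line by -1.06 ± 0.09 against their controls. Orc5, a subunit of the origin recognition complex, was higher in the exon 2 mutant by 1.09 ± 0.05 (adjusted p = 1.17e-05). Pold4, the small subunit of polymerase delta, was among the 2 that ran against the rest, being higher in trap than in Hprt knockout cells by 1.21 ± 0.08 (adjusted p = 1.72e-05) and lower in the Hprt knockout than in wild-type by -0.99 ± 0.08. All 10 tested genes of replication-coupled chromatin assembly were higher in the exon 2 mutant than in wild-type and lower in trap than in Hprt knockout cells, with Uhrf1, which guides maintenance methylation, at 0.88 and -0.55, and Chaf1b, a subunit of chromatin assembly factor 1, at 0.71 in the exon 2 mutant against wild-type. Of 10 further genes of deoxynucleotide supply 7 were higher in the exon 2 mutant than in wild-type, against 32.5% of all tested genes. In trap against Hprt knockout cells 7 of the 10 were lower, against 41.8%. Of 17 further G1/S regulators 12 were higher and 1 lower in the exon 2 mutant than in wild-type. The higher ones included the repressor E2f7 at 0.98 and the E2F partner Tfdp2 at 0.99. In trap against Hprt knockout cells 11 of the 17 were lower and 2 higher, against 41.8% and 26.6% of all tested genes.

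Genes of a later cell cycle phase were taken for comparison. Of 31 tested mitosis and kinetochore genes, 24 were higher and 1 lower in the exon 2 mutant than in wild-type, at a median of 0.43, and 31 were lower in trap than in Hprt knockout cells, at a median of -0.74. In the Hprt knockout 30 were higher than in wild-type and 0 lower, at a median of 0.62. Among all tested genes 32.5% were higher and 23.1% lower in the first comparison, 41.8% lower in the second, and 46.4% higher in the third. The replication genes had medians of 0.47, -0.51 and 0.62, with 34 of 40 higher, 39 lower and 38 higher. Most genes of both lists thus moved in the same directions in these comparisons. In the trap line against wild-type, 5 of 31 mitosis genes were higher and 13 lower, with a median of -0.11. The replication genes had 11 of 40 higher and 4 lower with a median of 0.08, and the background was 26.5% higher and 14.6% lower. Aurka, a mitotic kinase, was lower in that comparison by -0.73 (adjusted p = 0.000135). The difference between both effects was above 0 for 30 of the 31 mitosis genes and below for 0, at a median of 1.23. It was at least 2-fold for 20 of the 31, where the replication genes had 19 of 40 and a median of 0.96. Whether the replication and mitosis lists differ was not tested.

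Other probe sets of the same genes were examined as a check within the arrays. For 27 of the 40 genes, 38 further probe sets lay above the filter level. Where both the chosen and the further probe set passed, they had the same direction in 26 of 27 cases in the exon 2 mutant against wild-type, the exception being Mcm10, and in 32 of 32 cases both in the trap line against the Hprt knockout and in the Hprt knockout against wild-type. In the trap line against wild-type the figure was 7 of 7. The chosen probe set ended in _x_at for 5 of the 40 genes, Mcm5, Pold1, Fen1, Rrm2 and Ccne1, and in _s_at for 4, Mcm2, Mcm3, Mcm7 and Gins2. Such probe sets can match more than 1 transcript.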

How the data were processed

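Total RNA from 8 samples in 4 groups was labelled and hybridised to Affymetrix mouse arrays, per the labels' protocols. The deposited values are log2 intensities of 45101 probe sets, for which the submitters' processing notes name RMA, in a version not given here. RMA equalises the arrays' distributions, so a change of total RNA is not visible.

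A total of 64 control probe sets were left out, and 34945 probe sets carried 1 symbol in the platform annotation. For each of 18193 genes the probe set of highest mean was kept. The 13819 genes that exceeded an array's 40th percentile (log2 5.35 on average) on 2 or more of 8 arrays were tested. Group means were fitted to all 8 arrays with limma 3.58.1 (lmFit and eBayes) in R 4.3.3, with 4 residual degrees of freedom, or 6.86 once moderated. Differences are log2 ± SE. Two-sided p-values were adjusted by Benjamini-Hochberg per comparison and called at 0.05. With 2 arrays per group an exact permutation p is at least 0.333, so none was computed. The script was tested on simulated data. The number of arrays limits the precision.

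The genes and lists were chosen with earlier results of these data known. The comparisons of the exon 2 mutant with the trap line and with the Hprt knockout were added after values were seen. By rule, any of the 40 genes was named, and in the other lists up to 4 genes with the largest difference per comparison, besides Hprt and Gtf2i. Chaf1a, Ssrp1, Ccnb1, Fbn1 and Tdh matched no probe set with a single symbol. Same-numbered arrays did not deviate together, with correlations of -0.275 to 0.175 over the group pairs. Alternatives were no filter, cyclic loess scaling, the mean of all probe sets, an intensity trend, only the compared arrays, a replicate block, and leaving out each array or the Hprt knockout. Promoter windows came from RefSeq, GRCm38.p6.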

Additional observations from a re-analysis of the deposited data

Results flagged for a closer look

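A total of 37 of the 40 replication genes were marked by limma's test of the difference between 2 comparisons (adjusted p under 0.05). These were the exon 2 mutant against wild-type and the trap line against the Hprt knockout. The tested value also holds the Hprt knockout over wild-type difference, at a median of 0.62, between lines with no Gtf2i mutation in their labels. The same test was above 0 for 42.6% of all tested genes, and for 30 of 31 mitosis and kinetochore genes. The values are the exon 2 mutant effect minus the trap effect on the log2 scale, from 2 arrays per line. Among the MCM subunits it was 1.08 for Mcm2, 1.05 for Mcm3, 1.03 for Mcm6, 0.90 for Mcm5, 0.85 for Mcm4 and 0.74 for Mcm7. In the licensing genes it reached 1.83 for Cdc6, 1.27 for Orc6, 0.86 for Orc2, 0.81 for Cdt1, 0.69 for Gmnn and 0.52 for Orc1. For helicase activation the values were 1.59 for Mcm10, 1.17 for Gins3, 0.95 for Cdc45, 0.92 for Gins1 and 0.87 for Gins2. The polymerase and primase genes had 1.99 for Pola2, 1.66 for Pold1, 1.46 for Pold2, 1.42 for Prim2, 1.34 for Prim1, 1.31 for Pole, 1.09 for Pola1 and 1.04 for Pole2. Clamp, loader, single-strand binding and ligation genes had 1.38 for Rfc1, 1.26 for Rfc4, 1.13 for Rfc5, 0.96 for Rpa1, 0.85 for Lig1, 0.49 for Pcna and 0.47 for Rpa2. In deoxynucleotide supply it was 1.06 for Rrm2, 0.84 for Rrm1 and 0.67 for Tyms. Of the G1/S regulators it was 0.90 for E2f1 and 0.81 for Ccne1. The exon 2 mutant and the trap line come from different parental lines, the parental lines of the other two groups are not named, and the Hprt knockout differs in feeder signal, and none of this can be separated from the mutations. Lines of 2 arrays were too small for a test of single outlying arrays.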

How the results depend on the processing

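Without the filter, 34 of the 40 replication genes were higher in the exon 2 mutant than in wild-type, against 4280 of all 18193 genes. In trap against Hprt knockout cells 39 were then lower, where 9610 of all genes were called and 3682 of them were higher. An intensity trend gave the same counts of 34 and 39, against 34.0% and 42.3% of all tested genes. Without the Hprt knockout arrays in the fit, a setting added after values were seen, 34 were higher and 2 lower in the exon 2 mutant. The background there was 31.7% higher and 23.1% lower. Under cyclic loess scaling the medians were 0.37 for the exon 2 mutant against wild-type, -0.41 for the trap line against the Hprt knockout, 0.38 for the Hprt knockout against wild-type, 0.02 for the trap line against wild-type, 0.73 for the difference of both effects, 0.39 for the exon 2 mutant against the trap line and 0.01, reversed, against the Hprt knockout. There, 9 of the 40 genes were higher in the exon 2 mutant than in the Hprt knockout, against 32.0% of all tested genes. In the Hprt knockout against wild-type 1 gene, Ccne2, was lower at -0.50, against 34.2% of all tested genes, and Rfc3 reversed to -0.01. With the mean of all probe sets the medians were 0.45, 0.59, 0.05, 0.88, 0.36 and -0.14 for the exon 2 mutant, the Hprt knockout and the trap line each against wild-type, the difference of effects, and the exon 2 mutant against the trap line and the Hprt knockout; 1 gene was then lower than in the trap line and 0 higher than in the Hprt knockout. Among all genes called with that mean, 48.2% were higher in the exon 2 mutant against the trap line and 37.1% against the Hprt knockout. With only the compared arrays, 1 gene was lower in the Hprt knockout than in wild-type, against 24.9% of all tested genes. In that setting 2 were higher in the exon 2 mutant than in the Hprt knockout, against 22.8%. The cause of these shifts was not tested. Lig1, Mcm5, Rfc4 and Rpa2 in the Hprt knockout against wild-type, and E2f1, Gins1, Pcna, Pola1 and Rpa2 in the trap line against the Hprt knockout, did not pass under cyclic loess. Neither did Rpa2 and Rrm1 in the exon 2 mutant against wild-type.

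Leaving out each array in turn gave, for the exon 2 mutant against wild-type, 32 to 34 genes higher, 1 to 2 lower (1 without wild-type replicate 2) and medians of 0.46 to 0.47. For the trap line against the Hprt knockout 37 to 39 were lower, with medians of -0.53 to -0.50. The Hprt knockout against wild-type had 37 to 38 higher and medians of 0.60 to 0.63. The trap line against wild-type had 8 to 12 higher, 2 to 5 lower (2 without either trap array) and medians of 0.05 to 0.09. The difference of effects was above 0 for 37 genes each time, with medians of 0.94 to 1. Against the trap line, the exon 2 mutant had 27 to 32 genes higher, 1 to 2 lower and medians of 0.39 to 0.44. Against the Hprt knockout it had 1 to 3 higher, 13 to 16 lower and medians of -0.13 to -0.08. With a replicate block, whose numbers did not pair the arrays, the medians were 0.47, -0.51, 0.62 and 0.08 in the order exon 2 mutant against wild-type, trap line against Hprt knockout, then Hprt knockout and trap line each against wild-type, and Rpa1 lost its call in the last of these, at 0.17 (adjusted p = 0.0557).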
